A study of Homo sapiens with 30 samples.

Results

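Mitochondrial protein import and chaperone genes were followed in RNA sequencing of OPM2 and H929 cells, which are human multiple myeloma lines, that is, malignant plasma cells grown in culture. The genes were chosen by name: every symbol made of TIMM or TOMM and a number, which gave 24 genes, plus HSPD1, HSPE1, HSPA9, TRAP1, GRPEL1, PMPCA, PMPCB, CHCHD4, PHB, PHB2 and SAMM50. That made 35 genes of the 25680 symbols in the files, and all 35 passed the filter on low counts. By role, 11 belong to the outer membrane, 7 to the intermembrane space, 7 to the inner membrane translocases, 3 to the import motor, 2 to the processing peptidase, 3 to the folding chaperones of the matrix and 2 to the prohibitins. Each line was kept for 24 h either with 100 nM dBRD9-A, a degrader that targets the bromodomain protein BRD9, or with its solvent DMSO, and the labels name no hairpin or added allele for these groups. There were 3 libraries in each of the 4 groups, 12 in all.

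Most mitochondrial proteins are made in the cytosol from nuclear genes and enter through the TOM complex of the outer membrane. Precursors with an N-terminal presequence then pass the TIM23 complex of the inner membrane and are pulled into the matrix by a motor built on the chaperone HSPA9, whereas carrier proteins are escorted by small TIM chaperones to the TIM22 complex. In the matrix, a peptidase removes the presequence and chaperones fold the protein. Plasma cells make and secrete large amounts of protein, and their mitochondria supply energy for this work.

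The libraries held between 42895389 and 76600945 counts, except for replicate 2 of OPM2 with dBRD9-A, which held 24524193. That library also stood apart in its values: over 11467 genes, its log2 distance from the other libraries of its group had an SD of 0.90, against 0.15 to 0.26 in the 3 other groups. The distance ran with the GC content of the transcript (Spearman rho = -0.67 across genes), as it did, at a smaller size of distance, in other libraries (0.62 and -0.57 in H929 dBRD9-A replicates 2 and 1). For the import and chaperone genes it lay above both its mates in 17 of 35, with a range of -1.89 to 1.23 on the log2 scale. The counts and many of the results that rest on this library are thus given with and without it. BRD9 RNA was 89.7 ± 4.02 CPM (counts scaled to the library's total, mean ± SD, n = 3) in OPM2 with DMSO and 76.4 ± 8.04 with dBRD9-A, and 87.7 ± 13.5 and 63.6 ± 6.80 CPM in H929. Since the compound acts on the protein, this does not check the labels. Plasma cell markers were present in every group: 9 of 9 were detected. Their summed level was 11770 to 14100 CPM in OPM2 with DMSO, 6517 to 7590 with dBRD9-A, and 15580 to 16880 and 9189 to 10410 CPM in H929. The largest part of each sum was IGJ, with means of 7146 and 2436 CPM in OPM2 and 9643 and 4390 CPM in H929. In OPM2, XBP1 and CD38 had higher means with dBRD9-A (1757 against 1476 and 23.8 against 22.1 CPM), and the rest lower ones. Markers of T cells, myeloid cells, stroma or epithelium and erythroid cells summed to at most 39.3, 10.6, 26.1 and 6.46 CPM in any library, and CD3D, HBA1 and HBA2 were at or near 0. The T cell sum was almost wholly CD3E in H929, at 24.1 CPM with DMSO and 37.7 CPM with dBRD9-A. The part of these marker levels in the results was not tested.

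With dBRD9-A, 15 of the 35 import and chaperone genes fell in both lines, 3.19% of all genes did so, and none of the 35 rose in either. In OPM2, 18 of 35 passed the test (edgeR quasi-likelihood, Benjamini-Hochberg adjusted p under 0.05 over 16408 genes), all of them lower, while 17.4% of all genes tested were called, 7.34% lower and 10.1% higher. In H929, also 18 of 35 fell and none rose, beside 13.0% of all genes called, 5.67% lower and 7.33% higher. The median log2 fold change of the 35 was -0.42 in OPM2, where it was 0.03 over all genes, and -0.48 in H929, where it was 0.00 over all genes (-0.0019). By sign alone, 30 were below 0 in OPM2 and 34 in H929. Above 0 were TOMM20L, PMPCB, TIMM10B, TOMM7 and TOMM6 in OPM2 and TOMM34 in H929, none of them called. None of the 35 fell by as much as 2-fold.

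Every dBRD9-A library was below every DMSO library for 22 genes in OPM2, a pattern found for 18.9% of all genes, and for 31 genes in H929, against 23.6%. Added together, the 35 genes made up 5747, 6023 and 5631 CPM in the OPM2 libraries with DMSO and 3816, 4752 and 3754 CPM with dBRD9-A. In H929 the sums were 6033, 6813 and 6150 CPM with DMSO and 3953, 4240 and 4472 CPM with dBRD9-A. The treated libraries were lower throughout, and the highest treated sum in OPM2 was the one of replicate 2. These are levels relative to the other RNA sequenced, so less RNA of these genes per cell and fewer cells that hold it cannot be told apart.

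Leaving out OPM2 dBRD9-A replicate 2 raised the counts to 27 lower in OPM2, beside 15.6% of all genes called lower, and 29 lower in H929, beside 16.5%, where the spread per gene is shared by all libraries. Leaving out a DMSO library of OPM2 lowered the count there to between 9 and 11 (replicates 1, 2 and 3: 10, 9 and 11), leaving out a library of H929 lowered the H929 count to between 5 and 11 (DMSO replicates 1, 2 and 3: 9, 5 and 8, dBRD9-A replicates 1, 2 and 3: 5, 8 and 11), and fitting OPM2 alone called 6. The share of all genes called lower fell in the same fits, to between 3.24 and 3.64% without an OPM2 DMSO library, to between 1.38 and 3.4% without an H929 library and to 2.14% with OPM2 alone. Fitting H929 alone raised the count there to 26, beside 16.3% of all genes called lower. No alternative called any of the 35 genes higher with dBRD9-A.

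**Figure D1:**
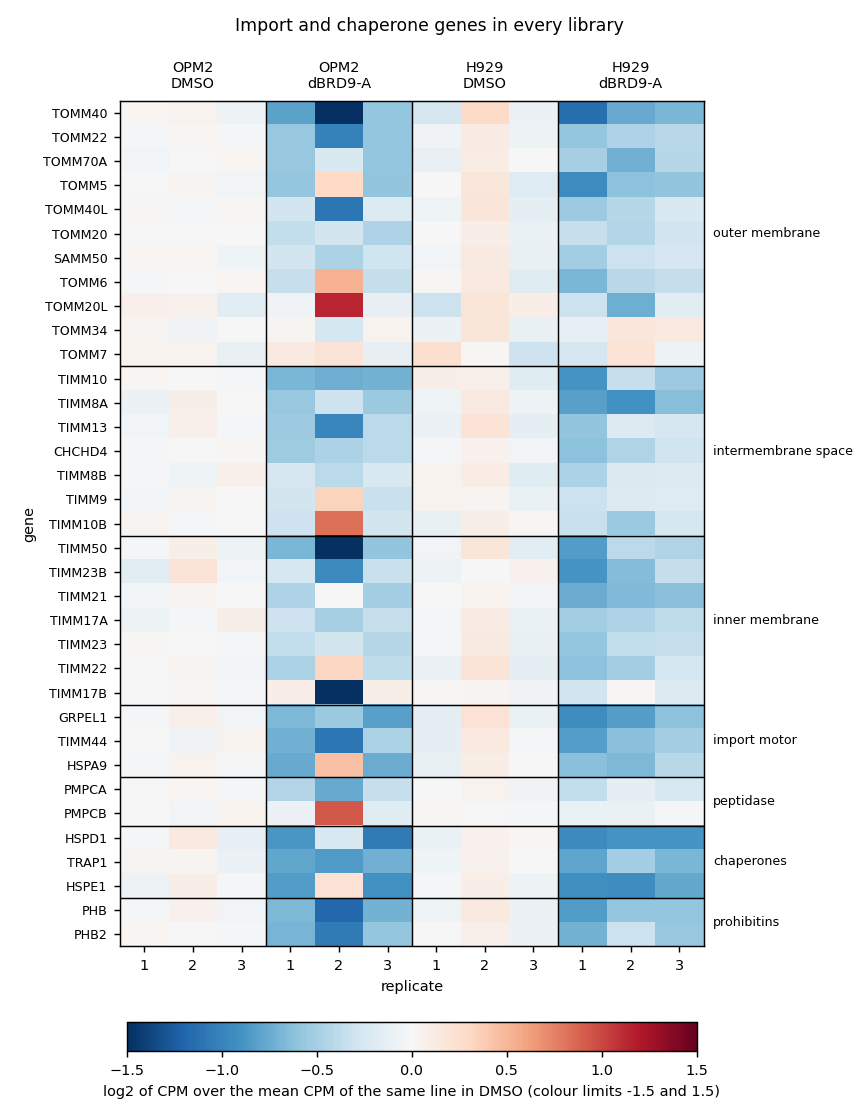
Log2 ratio of each library's CPM to the mean CPM of the same line in DMSO (colour, limits -1.5 and 1.5) for the 35 genes (rows, by role) in the 12 libraries (columns, by group and replicate). Blue prevails in the dBRD9-A columns of both lines, and replicate 2 of OPM2 with dBRD9-A departs from its mates in both directions.

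Promoter windows from RefSeq (GRCh38.p14), 250 bases before to 50 after the gene's start, were found for 32 of the 35 genes, and GRPEL1, TIMM8B and TOMM5 had none. The E-box CACGTG, the letters bound by MYC and related factors, was present in 6 of 32 windows (18.8%) and in 7.26% of all 35116 windows of this length. The 6 were HSPA9, HSPD1, HSPE1, TIMM10, TIMM8A and TOMM20, of which HSPD1, TIMM10, TIMM8A and TOMM20 fell in both lines. Of all 32 genes with a window, 14 fell in both lines. An ETS-type motif CCGGAAG was present in 12 windows (37.5%, against 10.3% of all) and the NRF1 motif (GCGCA and GCGC with 1 free base between) in 7 (21.9%, against 5.78%). The heat shock element (GAA, TTC and GAA with 2 free bases between each) was found in 0 of the 32 windows and in 0.49% of all, and the amino acid response element TGATGNAA in 2 (TIMM22 and PMPCB, 6.25%, against 3.62%). Both strands were searched, and no motif contains another. Windows with the E-box had a median log2 fold change of -0.45 in OPM2 and -0.68 in H929, and those without it -0.41 and -0.45. HSPD1 and HSPE1 share 1 E-box and 1 NRF1 match, so these sites enter the counts and medians of their motifs through both windows. For the ETS motif the same medians were -0.41 and -0.45 with it and -0.44 and -0.50 without it. For the NRF1 motif they were -0.42 and -0.45 with it and -0.45 and -0.48 without it. These differences were not tested. These matches are letters in a window and no measured binding. The members' windows had a median GC content of 65.3% and were not compared with windows of like GC content.

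The windows below show a gene with an E-box and an NRF1 match that shares its promoter with another member (HSPE1), a gene with an E-box and ETS matches that fell in both lines (TIMM10), a gene without any match that fell in both lines in every alternative (TRAP1), and a gene with matches that was called in neither line (TOMM34). They run 5′ to 3′ along the gene, and capitals mark the motif matches.
HSPE1, chr2:197500129-197500428, plus strand: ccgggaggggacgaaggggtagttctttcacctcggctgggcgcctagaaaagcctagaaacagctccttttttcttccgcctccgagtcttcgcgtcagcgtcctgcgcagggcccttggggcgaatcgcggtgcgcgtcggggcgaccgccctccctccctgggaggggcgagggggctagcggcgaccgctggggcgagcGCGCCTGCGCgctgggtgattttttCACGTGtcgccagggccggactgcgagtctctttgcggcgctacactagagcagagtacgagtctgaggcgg
TIMM10, chr11:57530705-57531004, minus strand: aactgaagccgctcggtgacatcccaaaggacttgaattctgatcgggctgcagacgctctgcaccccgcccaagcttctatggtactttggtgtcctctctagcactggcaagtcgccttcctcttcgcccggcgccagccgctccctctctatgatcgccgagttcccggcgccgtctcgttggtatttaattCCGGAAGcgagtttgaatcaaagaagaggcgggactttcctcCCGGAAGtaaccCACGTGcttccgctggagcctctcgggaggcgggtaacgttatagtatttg
TRAP1, chr16:3717475-3717774, minus strand: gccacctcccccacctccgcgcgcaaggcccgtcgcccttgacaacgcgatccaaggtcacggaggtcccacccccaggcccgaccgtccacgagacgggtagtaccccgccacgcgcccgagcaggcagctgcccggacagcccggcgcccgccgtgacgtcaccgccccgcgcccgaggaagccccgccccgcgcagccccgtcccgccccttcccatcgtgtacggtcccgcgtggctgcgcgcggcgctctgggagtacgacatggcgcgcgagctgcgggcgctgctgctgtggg
TOMM34, chr20:44960348-44960647, minus strand: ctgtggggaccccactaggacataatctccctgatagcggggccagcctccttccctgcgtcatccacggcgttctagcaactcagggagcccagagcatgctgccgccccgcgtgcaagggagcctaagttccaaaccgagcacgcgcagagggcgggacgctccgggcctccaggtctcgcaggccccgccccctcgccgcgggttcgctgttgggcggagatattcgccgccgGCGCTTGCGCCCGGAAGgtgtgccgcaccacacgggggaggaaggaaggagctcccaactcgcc
HSPD1 and HSPE1 lie head to head, with starts 105 bases apart, so their windows overlap by 204 bases and hold the same E-box and NRF1 match. The E-box lies at -22 from the start of HSPE1 and at -88 from the start of HSPD1, and the NRF1 match at -47 and -67. In TIMM10 the E-box begins at -1 and the ETS matches at -55 and -13. TOMM34 has its NRF1 match at -14 and its ETS match at -4.

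At the outer membrane, 4 of 11 genes fell in OPM2 (TOMM40, TOMM22, TOMM70A and TOMM20) and 5 of 11 in H929 (these 4 and TOMM5). TOMM40 is the channel through which nearly all precursors cross the outer membrane. Its level was 287, 291 and 267 CPM in the OPM2 libraries with DMSO and 162, 86.0 and 189 CPM with dBRD9-A. In H929 it was 192, 278 and 215 CPM with DMSO and 104, 135 and 142 CPM with dBRD9-A. The groups did not overlap in either line, and replicate 2 of OPM2 was the lowest library. TOMM40 fell by 0.95 on the log2 scale (SE 0.24, adjusted p = 0.0195) in OPM2, by 0.70 (adjusted p = 0.00231) without replicate 2, and by 0.85 (SE 0.24, adjusted p = 0.0388) in H929. In H929 the call stood in 10 of 22 alternatives.

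TOMM40L, a paralog of TOMM40, was lower in every treated library but passed the test in neither line. It measured 85.5, 83.3 and 85.6 CPM with DMSO and 70.2, 39.9 and 73.7 CPM with dBRD9-A in OPM2, and 107, 128 and 102 CPM against 76.9, 83.4 and 95.8 CPM in H929. Its log2 fold changes were -0.47 ± 0.19 (SE, adjusted p = 0.116) and -0.39 ± 0.19 (adjusted p = 0.215). Without replicate 2 of OPM2 with dBRD9-A it passed in H929, at -0.36 (adjusted p = 0.00809), but not in OPM2, at -0.25 (adjusted p = 0.0869).

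The receptors of the TOM complex all fell in both lines. TOMM22, which joins receptor and channel, fell by 0.70 on the log2 scale in OPM2 (SE 0.13, adjusted p = 0.00327) and by 0.49 in H929 (SE 0.13, adjusted p = 0.0246). TOMM20, the receptor for presequences, fell by 0.37 (adjusted p = 0.0245) and 0.36 (adjusted p = 0.0333), and TOMM70A, the receptor for carrier precursors, now named TOMM70, by 0.45 (adjusted p = 0.0276) and 0.54 (adjusted p = 0.0136). The call of TOMM20 in H929 stood in 9 of 22 alternatives. In all 3 genes no treated library reached a DMSO library of its line.

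Among the small TOM subunits, TOMM5 measured 72.1, 73.7 and 69.9 CPM with DMSO and 47.9, 88.7 and 47.9 CPM with dBRD9-A in OPM2, so that replicate 2 lay above the DMSO libraries. Its log2 fold change there was -0.23 (adjusted p = 0.483), and -0.60 (adjusted p = 0.00106) without that library. In H929 it fell by 0.71 (SE 0.21, adjusted p = 0.0474), a call that stood in 9 of 22 alternatives. TOMM6 had the same shape, at 0.000803 (adjusted p = 1.0) in OPM2 with replicate 2 and -0.36 (adjusted p = 0.0169) without it, and -0.48 (adjusted p = 0.156) in H929. In H929, TOMM6 passed when replicate 2 of OPM2 was left out, at -0.44 (adjusted p = 0.00207). TOMM7 overlapped between the groups in both lines, at 0.07 and -0.03.

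SAMM50, the core of the machinery that inserts barrel proteins into the outer membrane, was just outside the threshold in both lines, at -0.34 ± 0.11 (SE, adjusted p = 0.0533) and -0.36 ± 0.11 (adjusted p = 0.0543). Without replicate 2 of OPM2 with dBRD9-A, SAMM50 passed in both lines, at -0.30 (adjusted p = 0.028) and -0.32 (adjusted p = 0.0082). TOMM34, a cochaperone of the cytosol, overlapped between the groups in both lines, with log2 fold changes of -0.05 ± 0.13 (adjusted p = 0.815) and 0.08 ± 0.13 (adjusted p = 0.766). TOMM20L, a paralog of TOMM20, was the least abundant of the set in OPM2. It was at 1.15, 1.14 and 0.973 CPM with DMSO and 1.05, 2.40 and 0.996 CPM with dBRD9-A in OPM2, and at 1.23, 1.75 and 1.64 CPM against 1.23, 0.924 and 1.38 CPM in H929. The groups overlapped, and the test gave 0.38 ± 0.32 (adjusted p = 0.444) and -0.38 ± 0.32 (adjusted p = 0.502).

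In the intermembrane space, 4 of 7 genes fell in OPM2 (TIMM10, TIMM13, TIMM8A and CHCHD4) and 3 of 7 in H929 (the same without TIMM13). TIMM10 and TIMM9 form the ring that carries hydrophobic precursors across this space. TIMM10 measured 45.8, 44.5 and 43.9 CPM with DMSO and 27.8, 26.9 and 27.2 CPM with dBRD9-A in OPM2, and 48.7, 48.2 and 40.3 CPM against 24.5, 36.1 and 31.5 CPM in H929. The treated libraries were lower in both lines, and in OPM2 they lay within 1 CPM of each other. TIMM10 fell by 0.71 on the log2 scale (SE 0.14, adjusted p = 0.00542) in OPM2 and by 0.58 (SE 0.14, adjusted p = 0.0179) in H929. Its partner TIMM9 stood at -0.07 (adjusted p = 0.815) and -0.24 (adjusted p = 0.379), and at -0.32 (adjusted p = 0.0123) in OPM2 without replicate 2.

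TIMM8A, which with TIMM13 carries a narrower set of precursors and is mutated in deafness-dystonia syndrome, was at 18.8, 21.3 and 19.9 CPM with DMSO and 13.5, 16.1 and 13.6 CPM with dBRD9-A in OPM2. In H929 it was at 22.4, 25.9 and 22.3 CPM and at 13.3, 12.6 and 15.1 CPM. No treated library reached a DMSO library, and the fall was 0.48 (SE 0.13, adjusted p = 0.0242) in OPM2 and 0.78 (SE 0.13, adjusted p = 0.00247) in H929. The same gene's close relative TIMM8B passed in neither line, at -0.29 ± 0.12 (SE) and -0.29 ± 0.12. TIMM13 fell by 0.62 in OPM2 (adjusted p = 0.0202) and stood at -0.34 (adjusted p = 0.192) in H929. Without replicate 2 of OPM2 with dBRD9-A both passed in H929, TIMM8B at -0.26 (adjusted p = 0.041) and TIMM13 at -0.31 (adjusted p = 0.0362).

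TIMM10B, a small TIM bound to the TIM22 complex, had opposite signs with and without replicate 2. It measured 49.6, 47.3 and 48.3 CPM with DMSO and 39.1, 86.1 and 40.03 CPM with dBRD9-A in OPM2, giving 0.18 (adjusted p = 0.647) with all libraries and -0.30 (adjusted p = 0.0254) without that library. In H929 it stood at -0.38 (adjusted p = 0.363), and at -0.34 (adjusted p = 0.00624) without that OPM2 library. CHCHD4, the oxidoreductase that forms the disulfide bonds of the small TIMs, fell evenly, by 0.47 (adjusted p = 0.0116) and 0.45 (adjusted p = 0.0175).

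At the inner membrane, 3 of 7 genes fell in OPM2 (TIMM50, TIMM17A and TIMM23) and 3 of 7 in H929 (TIMM21, TIMM17A and TIMM23). TIMM50 is the receptor that receives presequences from the TOM complex. Its level was 89.8, 96.3 and 86.2 CPM with DMSO and 56.6, 30.2 and 60.3 CPM with dBRD9-A in OPM2, and 61.2, 71.6 and 56.4 CPM against 35.4, 47.8 and 45.9 CPM in H929. Treated libraries were lower in both lines. TIMM50 fell by 0.89 (SE 0.22, adjusted p = 0.0167) in OPM2, by 0.65 (adjusted p = 0.00111) without replicate 2, and its value in H929 was -0.55 (SE 0.22, adjusted p = 0.122). Without replicate 2 of OPM2 with dBRD9-A, TIMM50 passed in H929 as well, at -0.52 (adjusted p = 0.00199).

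TIMM17A and TIMM17B are alternative subunits of the TIM23 channel, and only TIMM17A passed the test. TIMM17A was at 166, 172 and 186 CPM with DMSO and 141, 124 and 138 CPM with dBRD9-A in OPM2, and at 121, 134 and 115 CPM against 85.5, 88.9 and 94.5 CPM in H929. It fell by 0.38 (SE 0.10, adjusted p = 0.0245) and by 0.46 (SE 0.10, adjusted p = 0.0129), with no overlap in either line. TIMM17B was at 61.4, 61.8 and 59.8 CPM with DMSO and 65.2, 17.5 and 64.6 CPM with dBRD9-A in OPM2, and at 62.2, 63.1 and 59.0 CPM against 50.5, 62.0 and 53.2 CPM in H929. Apart from replicate 2 of OPM2, TIMM17B stayed within the range of 50.5 to 65.2 CPM in all groups. Its log2 fold change was -0.31 ± 0.34 (SE, adjusted p = 0.564) in OPM2, 0.08 ± 0.09 without replicate 2, and -0.15 ± 0.34 (adjusted p = 0.828) in H929. The contrast between the paralogs was not itself tested.

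TIMM23, the channel of the complex, and TIMM23B, its near-identical copy, are uncertain, since reads of one can be counted for the other. TIMM23 measured 45.5, 45.1 and 44.1 CPM with DMSO and 34.9, 37.1 and 33.4 CPM with dBRD9-A in OPM2, and 21.9, 24.6 and 20.7 CPM against 15.02, 17.3 and 17.7 CPM in H929. It fell by 0.35 (SE 0.11, adjusted p = 0.0446) and 0.43 (SE 0.11, adjusted p = 0.026). TIMM23B was at 7.97, 10.3 and 8.72 CPM and at 7.57, 4.63 and 7.15 CPM in OPM2, and at 4.13, 4.38 and 4.55 CPM and at 2.36, 2.77 and 3.40 CPM in H929. Treated libraries of both genes were the lower ones, but TIMM23B missed the threshold, at -0.47 (adjusted p = 0.123) and -0.61 (adjusted p = 0.0715). Without replicate 2 of OPM2 with dBRD9-A, TIMM23B passed in H929, at -0.57 (adjusted p = 0.00765), but not in OPM2, at -0.30 (adjusted p = 0.146). TIMM21, which links TIM23 to the respiratory chain, fell in H929 by 0.68 (adjusted p = 0.00595), in every alternative. In OPM2 it stood at -0.30 (adjusted p = 0.123), and at -0.50 (adjusted p = 0.000252) without replicate 2. TIMM22, the carrier translocase, passed in neither line, at -0.14 (adjusted p = 0.65) and -0.46 (adjusted p = 0.146). Its level in replicate 2 of OPM2 with dBRD9-A was 34.4 CPM, against 19.9 and 21.2 CPM in the mates. Without that library TIMM22 passed in both lines, at -0.44 (adjusted p = 0.0103) and -0.42 (adjusted p = 0.00593).

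Of the import motor, GRPEL1 and TIMM44 fell in both lines. GRPEL1, the nucleotide exchange factor of HSPA9, was at 74.2, 79.7 and 73.4 CPM with DMSO and 47.6, 51.4 and 43.2 CPM with dBRD9-A in OPM2, and at 66.0, 84.0 and 67.4 CPM against 38.1, 41.0 and 47.3 CPM in H929. It fell to 62.5% and 58.1% of the DMSO level (log2 fold changes -0.68 ± 0.13 and -0.78 ± 0.13, SE, adjusted p = 0.00469 and 0.00261), with no overlap. GRPEL1 and TRAP1 were the only 2 of the 35 called lower in both lines in all 22 alternatives. TIMM44, which tethers HSPA9 to the channel, was at 123, 119 and 127 CPM with DMSO and 74.8, 58.0 and 88.8 CPM with dBRD9-A in OPM2, and at 133, 163 and 145 CPM against 82.5, 95.3 and 103 CPM in H929. It was lower in every treated library, by 0.73 (SE 0.15, adjusted p = 0.00702) and 0.65 (SE 0.15, adjusted p = 0.0154).

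HSPA9, the Hsp70 of mitochondria that drives the motor and also folds proteins, depended on replicate 2. In OPM2 it measured 472, 493 and 466 CPM with DMSO and 282, 649 and 286 CPM with dBRD9-A. The 2 other treated libraries were below and replicate 2 was above all DMSO libraries, and the log2 fold change was -0.23 ± 0.26 (SE, adjusted p = 0.561) with it and -0.76 ± 0.10 (adjusted p = 5.76e-05) without it. In H929 it measured 1189, 1373 and 1283 CPM with DMSO and 827, 804 and 964 CPM with dBRD9-A, with no overlap. Its value there was -0.57 ± 0.26 (adjusted p = 0.179), and -0.53 ± 0.09 (adjusted p = 0.000264) when replicate 2 of OPM2 no longer entered the shared spread.

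The processing peptidase is a dimer of PMPCA and the catalytic PMPCB. PMPCA fell in OPM2 by 0.51 (SE 0.12, adjusted p = 0.012) and stood at -0.25 (SE 0.12, adjusted p = 0.194) in H929. Without replicate 2 of OPM2 with dBRD9-A, PMPCA passed in H929 too, at -0.21 (adjusted p = 0.0369). PMPCB was at 115, 112 and 120 CPM with DMSO and 109, 220 and 102 CPM with dBRD9-A in OPM2, and at 104, 101 and 99.3 CPM against 94.9, 94.8 and 99.1 CPM in H929. It passed in neither line, at 0.31 ± 0.23 (SE, adjusted p = 0.365), or -0.15 ± 0.08 (adjusted p = 0.161) without replicate 2, and -0.07 ± 0.23 (adjusted p = 0.884).

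All 3 folding chaperones of the matrix fell in H929, where HSPD1 and HSPE1 had the lowest log2 fold changes of the set, and HSPD1 and TRAP1 fell in OPM2. HSPD1, the Hsp60 chamber in which imported proteins fold, measured 1364, 1543 and 1281 CPM with DMSO and 759, 1195 and 671 CPM with dBRD9-A in OPM2. In H929 it measured 1319, 1481 and 1447 CPM with DMSO and 732, 763 and 765 CPM with dBRD9-A. The groups were apart in both lines, narrowly in OPM2 because of replicate 2. HSPD1 fell to 62.7% (log2 fold change -0.67 ± 0.18, SE, adjusted p = 0.0245) in OPM2 and to 53.2% (-0.91 ± 0.18, adjusted p = 0.00735) in H929. Without replicate 2 the value in OPM2 was -0.98 ± 0.10 (adjusted p = 6.8e-06).

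HSPE1, the Hsp10 lid of that chamber, was at 224, 253 and 233 CPM with DMSO and 132, 274 and 126 CPM with dBRD9-A in OPM2, and at 215, 235 and 209 CPM against 116, 115 and 130 CPM in H929. In OPM2 replicate 2 lay above all DMSO libraries and its mates far below them. The log2 fold change there was -0.42 ± 0.24 (SE, adjusted p = 0.24) with all libraries and -0.89 ± 0.09 (adjusted p = 7.21e-06) without it, and HSPE1 fell by 0.87 (SE 0.24, adjusted p = 0.0322) in H929. A read-through transcript, HSPE1-MOB4, is listed with 0.96 to 1.29 times the count of HSPE1 and was above it in 11 of 12 libraries, so reads of the 2 may be shared.

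TRAP1, the Hsp90 of mitochondria, measured 296, 296 and 271 CPM with DMSO and 168, 160.0 and 175 CPM with dBRD9-A in OPM2, and 223, 244 and 232 CPM against 135, 164 and 145 CPM in H929. The groups were far apart, and here replicate 2 lay close to its mates. TRAP1 fell by 0.78 (SE 0.10, adjusted p = 0.000532) in OPM2, the smallest adjusted p of the 35 there, and by 0.66 (SE 0.10, adjusted p = 0.00203) in H929, also the smallest.

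PHB and PHB2 form the prohibitin ring that scaffolds the inner membrane. PHB, now named PHB1, was at 144, 155 and 144 CPM with DMSO and 92.6, 64.9 and 90.5 CPM with dBRD9-A in OPM2, and at 174, 202 and 172 CPM against 102, 122 and 123 CPM in H929. PHB2 was at 416, 409 and 401 CPM and at 252, 197 and 273 CPM in OPM2, and at 196, 206 and 183 CPM and at 119, 156 and 132 CPM in H929. Both were lower in every treated library. PHB fell by 0.83 (SE 0.14, adjusted p = 0.00262) and 0.66 (SE 0.14, adjusted p = 0.0106), and PHB2 by 0.76 (SE 0.14, adjusted p = 0.00333) and 0.52 (SE 0.14, adjusted p = 0.0258).

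**Figure D2:**
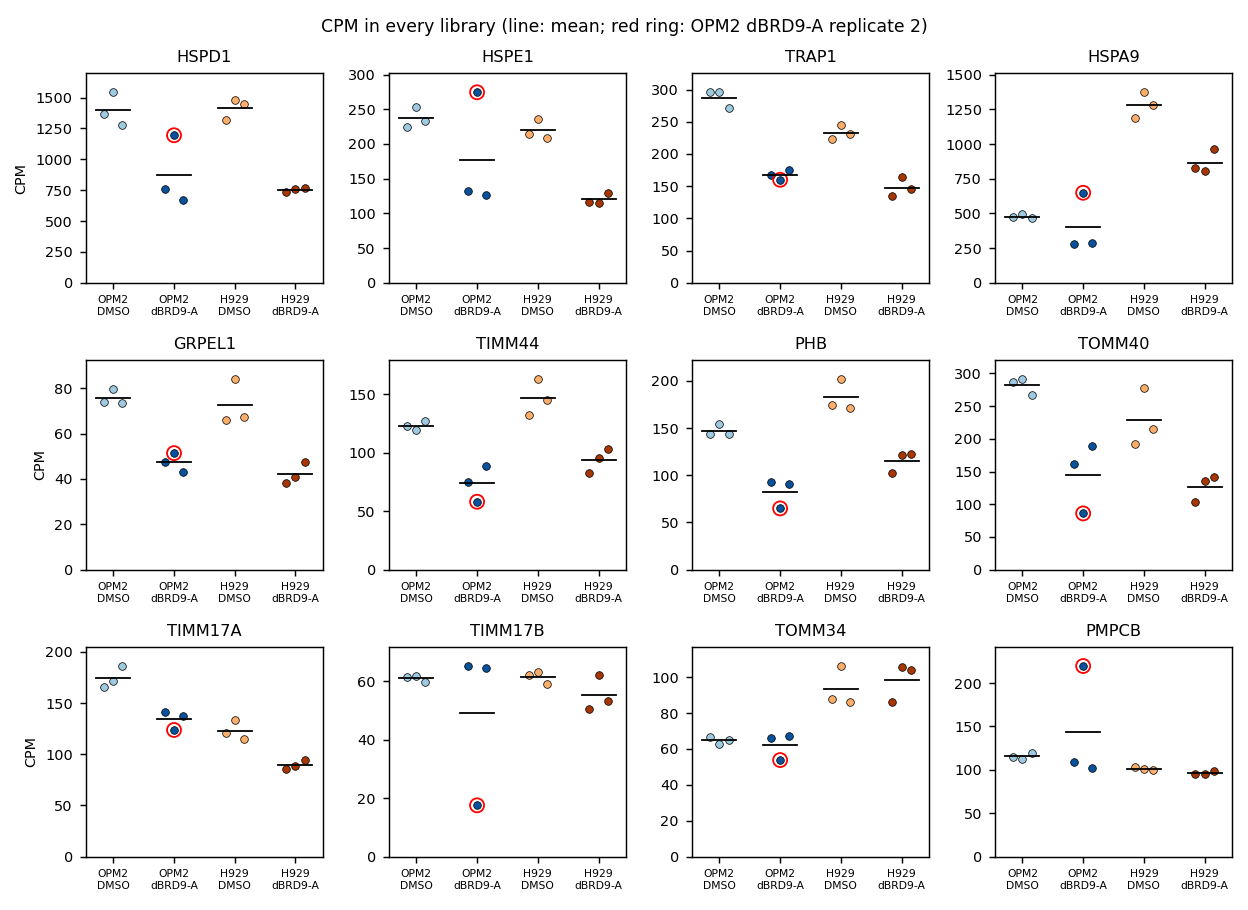
CPM of 12 genes in each of the 12 libraries (points; horizontal line, group mean; axes start at 0), with replicate 2 of OPM2 with dBRD9-A ringed in red. TRAP1 and GRPEL1 separate by treatment in both lines, while in HSPE1, HSPA9, PMPCB and TIMM17B the ringed library lies outside its group mates.

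The response did not differ detectably between the lines for any of the 35 genes. For the difference of the log2 fold changes, H929 minus OPM2, 0 of 35 were called by edgeR, beside 0.579% of all genes, and 0 had an unadjusted p under 0.05. DESeq2 also called 0, beside 1.11% of all genes lower and 1.16% higher. Limma-voom called 0 as well, beside 2.82% lower and 2.55% higher. At such shares, 0 of 35 does not set these genes apart from all genes. The differences ran from -0.75 ± 0.46 (SE) for TOMM20L to 0.33 ± 0.31 for TIMM50, and the smallest adjusted p was 0.607, for TIMM21 (-0.37 ± 0.18). With a median SE of 0.21, differences of the size seen could not be told from 0, which does not show that the lines respond alike. Across the 35 genes the changes in OPM2 and in H929 had a Pearson correlation of 0.59 and a Spearman correlation of 0.56, and of 0.87 and 0.83 without replicate 2. Genes are not independent replicates, and these values carry no test.

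**Figure D3:**
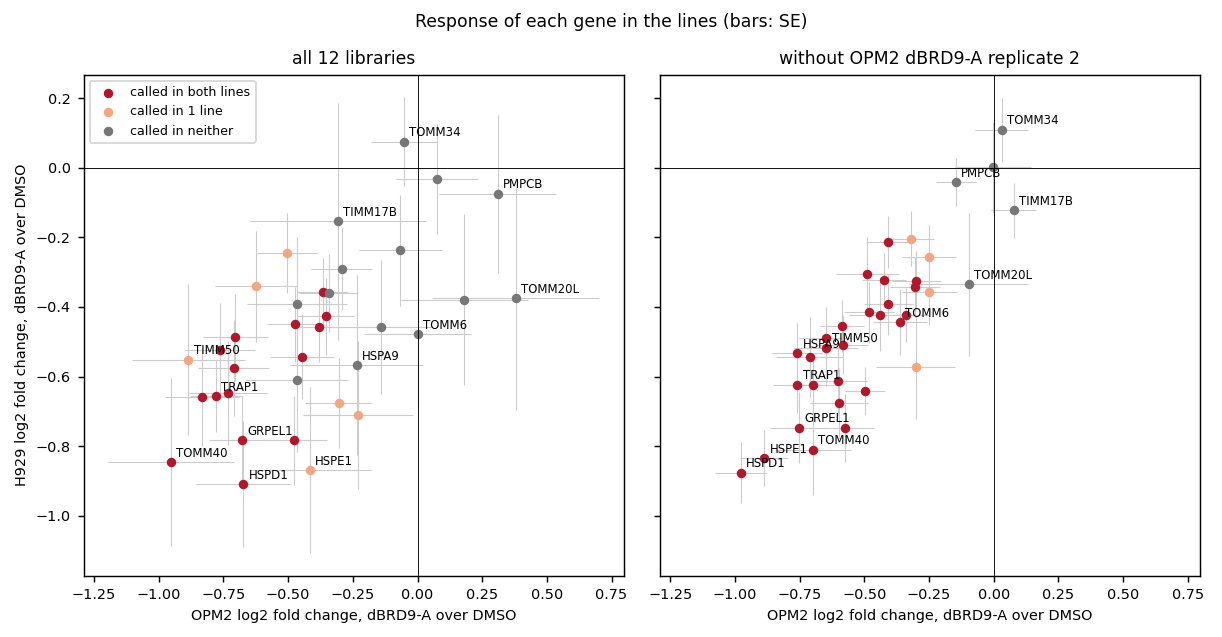
Log2 fold change with dBRD9-A in OPM2 (horizontal) and in H929 (vertical) for the 35 genes, with SE as bars, from all 12 libraries (left) and without replicate 2 of OPM2 with dBRD9-A (right). Most genes lie in the lower left part, and TOMM6, PMPCB and TOMM20L move from the right of 0 or near it to the left when that library is left out.

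In the untreated state, the lines differed in 4 of the 35 genes by at least 1 on the log2 scale with an adjusted p under 0.05, beside 36.3% of all genes called. HSPA9 was higher in H929, by 1.43 on the log2 scale (SE 0.26, adjusted p = 0.000471), with library values of 1189 to 1373 CPM against 466 to 493 CPM. PHB2 was lower in H929, at -1.07 (SE 0.14, adjusted p = 2.4e-05). TIMM23B and TIMM23 were lower at -1.05 (adjusted p = 0.000639) and -1.002 (adjusted p = 6.74e-06), close to the fold threshold. Their calls stood in 19 and 16 of 21 alternatives. Both lost the call when OPM2 DMSO replicate 2 was left out, which left 2 of 35 called, beside 14.3% of all genes lower and 20.7% higher. PHB and PHB2, whose proteins assemble together, thus stood in different proportion: per length, PHB was 0.27 ± 0.01 (SD, n = 3) of PHB2 in OPM2 with DMSO and 0.71 ± 0.03 in H929.

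Per kilobase of transcript, HSPD1 was the most abundant of the set in both lines, at 607 ± 58.4 CPM per kb (SD, n = 3) in OPM2 and 615 ± 37.3 in H929 with DMSO. In OPM2 it was followed by PHB2 at 283 ± 5.25 and HSPE1 at 248 ± 15.9, and then by TOMM20 at 157 ± 0.71 and TOMM40 at 156 ± 7.23, which did not differ beyond their spread. In H929 HSPA9 came next, at 366 ± 26.4, then HSPE1 at 231 ± 14.4, and PHB2 at 135 ± 7.72 and TOMM40 at 127 ± 24.6, which overlapped. TIMM23B and TOMM20L were lowest, at 3.58 ± 0.47 and 1.78 ± 0.16 CPM per kb in OPM2 and 1.73 ± 0.08 and 2.52 ± 0.45 in H929. With dBRD9-A the share of HSPD1 in the summed counts of the 35 genes went from 22.7 to 25.6% in the OPM2 libraries with DMSO to 19.9, 25.1 and 17.9%, where replicate 2 was the high value, and from 21.7 to 23.5% to 17.1 to 18.5% in H929.

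**Figure D4:**
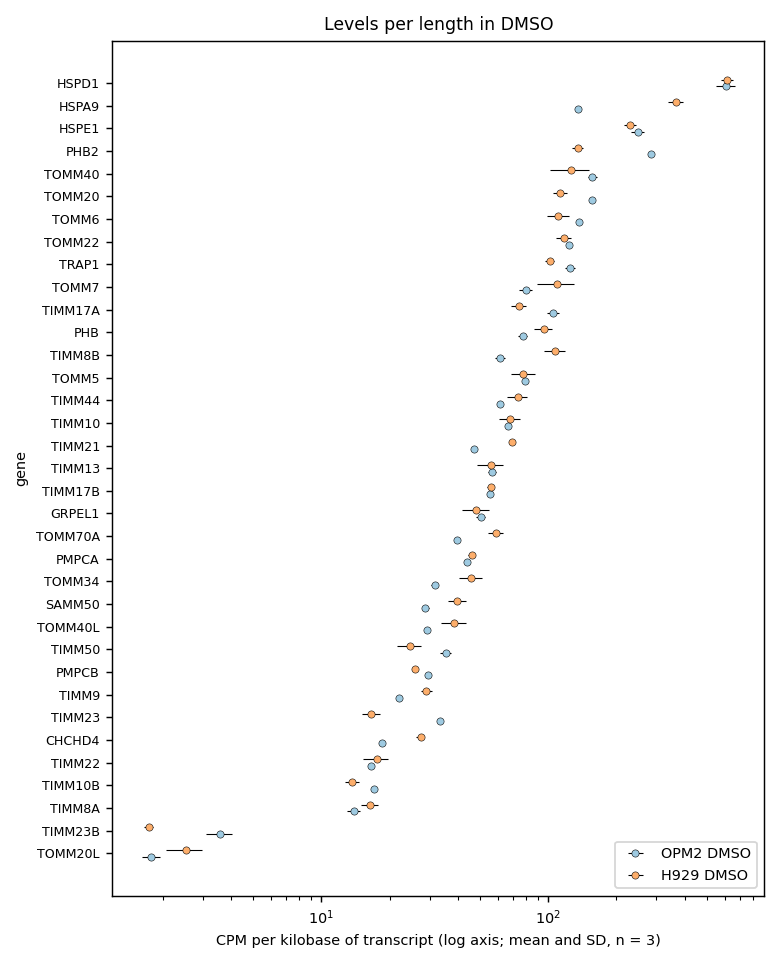
Level per kilobase of transcript (log axis, CPM per kb, mean and SD, n = 3) of the 35 genes in OPM2 and H929 with DMSO, ordered by the mean of both lines. HSPD1 leads in both lines, and HSPA9, PHB2, TIMM23 and TIMM23B show the widest gaps between them.

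Replicate 2 of OPM2 with dBRD9-A deviated from its mates along GC content within the set as well. Over the 35 transcripts, whose GC content ran from 39.6 to 64.8%, the rank correlation of its deviation with GC content was -0.59. The log2 fold changes in OPM2 had a rank correlation with GC content of -0.48 with that library and -0.14 without it, and those in H929 one of -0.09. After removal of the GC trend within libraries, 20 genes were lower in OPM2 and 21 in H929, and 0 were higher, while the share of all genes called lower rose to 12.3% and 10.9%.

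Other genes of import and of protein quality control were read from lists. Of 19 further import genes, 3 fell in each line: PAM16, the regulator of the motor's J-protein, fell by 0.61 (adjusted p = 0.00611) in OPM2 and by 0.67 (adjusted p = 0.00465) in H929, and DNAJC11 by 0.41 and 0.53 (adjusted p = 0.0173 and 0.0061). DNLZ, which keeps HSPA9 soluble, fell in OPM2 by 0.93 (adjusted p = 0.00902) and stood at -0.57 (adjusted p = 0.0789) in H929. Without replicate 2 of OPM2 with dBRD9-A, DNLZ passed in H929 too, at -0.54 (adjusted p = 0.0122). GRPEL2, the stress-related relative of GRPEL1, fell in H929 by 0.57 (adjusted p = 0.00895) and stood at -0.09 in OPM2. The median of these 19 was -0.10 in OPM2 and -0.14 in H929. Over all genes tested, 7.34% were called lower in OPM2 and 5.67% in H929.

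Of 15 further peptidases and proteases, 7 fell in OPM2 and 3 in H929, beside 7.34% and 5.67% of all genes. LONP1, the Lon protease of the matrix, fell by 0.80 (adjusted p = 0.00479) and 0.61 (adjusted p = 0.0217), HTRA2 by 0.48 and 0.54 (adjusted p = 0.0331 and 0.0247), and AFG3L2, an inner membrane protease, by 0.38 and 0.45 (adjusted p = 0.035 and 0.0209). MIPEP, which trims some precursors a further time, fell in OPM2 by 0.69 (adjusted p = 0.0186). In H929 it stood at -0.56 (adjusted p = 0.0565), and at -0.52 (adjusted p = 0.00569) without replicate 2 of OPM2 with dBRD9-A. Of 6 further chaperones, DNAJA3, a J-protein partner of HSPA9, fell in both lines, by 0.75 (adjusted p = 0.00524) and 0.54 (adjusted p = 0.0295). BCS1L and CLPB passed the test in OPM2, where they fell by 0.78 (adjusted p = 0.0142) and 0.46 (adjusted p = 0.0232). Without replicate 2 of OPM2 with dBRD9-A, BCS1L passed in H929 too, at -0.55 (adjusted p = 0.000472), and CLPB did not, at -0.23 (adjusted p = 0.0524).

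For comparison, of 80 tested mitochondrial ribosomal protein genes, 16 were lower and 1 higher in OPM2 and 10 lower in H929, with medians of -0.18 and -0.25. Of 95 tested subunits of oxidative phosphorylation, 8 were lower and 1 higher in OPM2 and 2 lower in H929, with medians of -0.10 and -0.09. Over all genes tested, 7.34% were lower and 10.1% higher in OPM2, and 5.67% lower and 7.33% higher in H929. Without replicate 2 the list counts were 45 and 42 lower for the ribosomal proteins and 28 and 8 lower for oxidative phosphorylation. In that setting 15.6% of all genes were called lower in OPM2 and 16.5% in H929. The import and chaperone genes had a lower median than both lists in either setting, a difference that was described and not tested. MYC RNA fell by 1.33 (SE 0.26, adjusted p = 0.00544) in OPM2 and by 1.72 (SE 0.26, adjusted p = 0.00183) in H929. Its protein binds the E-box, but a link between the fall of MYC and those of the import and chaperone genes was not tested.

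**Figure D5:**
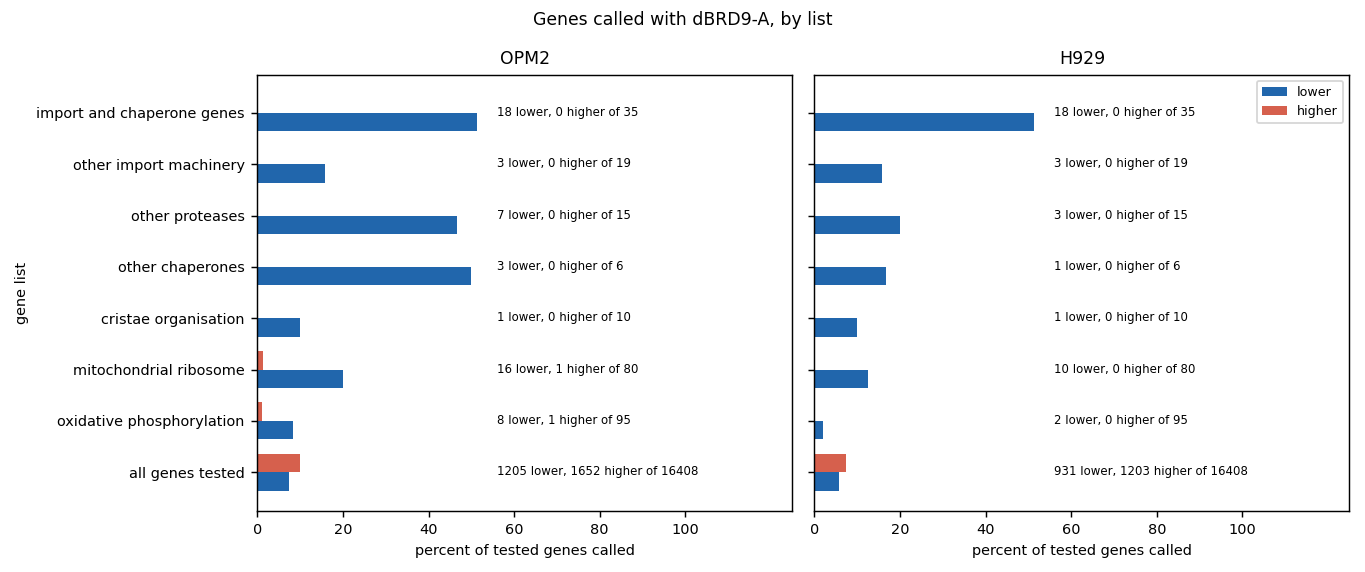
Share of tested genes called lower (blue) or higher (red) with dBRD9-A in OPM2 (left) and H929 (right), for the 35 import and chaperone genes, 6 comparison lists and all genes tested, with the counts printed beside the bars. The set of 35 has 18 lower and 0 higher in each line.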

How the data were processed

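RNA of the 12 libraries was extracted with a column kit and made into poly(A)-selected, stranded libraries, per the labels' protocols. STAR, featureCounts, hg19 and GRCh37 are named in the submitters' processing notes, with no versions. Per the file headers, the authors deposited 51780 RefSeq transcripts, each with its count, FPKM and TPM. The deposited counts are whole numbers without normalisation and were the input of all tests, the deposited FPKM values gave only the transcript lengths, and the deposited TPM values were used only as a check. The sources used here do not give how strand and overlapping transcripts were treated in the counting. Among 6207 symbols with at least 2 transcripts of a mean count of 100 or more, the top 2 differed by at most 10% in 90.0%, so transcripts of a gene appear to share reads. Another 18 of the 30 samples listed were not analysed here.

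For each symbol the transcript row of highest mean count was used, which for TIMM23 and TIMM8B is annotated as non-coding. In R 4.3.3 with edgeR 4.0.16, genes were filtered with filterByExpr by group (16408 left), scaled by TMM and fitted by quasi-likelihood with a mean per group, so that all 4 groups share 1 spread per gene. P-values were Benjamini-Hochberg adjusted over all genes tested and called at 0.05, and between the untreated lines a log2 fold change of at least 1 in size was also asked. CPM values are scaled by TMM, and SE is that of the log2 fold change. The fit was tested on simulated data.

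Every gene of the set is named. Library values are given for up to 8 genes called in both lines, the 4 largest called changes in each line, HSPD1, HSPE1, HSPA9 and TRAP1, the extremes of level per length and 4 paralog pairs, and were added for TOMM5, TIMM10B and PMPCB after their values were seen. The genes and lists were chosen with earlier results of these data known. The labels do not say whether replicates were separate cultures. P-values thus reflect only how much these libraries vary, which may be technical. The alternatives were DESeq2 1.42.0, limma-voom (limma 3.58.1) with library weights, other scalings and filters, counts summed over transcripts, a GC correction, a replicate block and each library left out in turn. Promoter windows and transcript GC content come from GRCh38, whereas the counts are on the older build, so no coordinates were joined to counts.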

Additional observations from a re-analysis of the deposited data

How the results depend on the processing

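Of the 22 alternatives tried for each treatment comparison, all kept the direction of the counts, with 0 genes higher. The count of 18 in OPM2 became 6 when each line was fitted alone and 29 with limma-voom and library weights, and ranged from 9 to 27 with 1 library left out. The share of all genes called lower in OPM2 was 2.14% fitted alone, 20.9% with limma-voom and 3.24 to 15.6% with 1 library left out. The count of 18 in H929 became 26 when each line was fitted alone and 28 with limma-voom, and ranged from 5 to 29 with 1 library left out. The share of all genes called lower in H929 was 16.3% fitted alone, 18.6% with limma-voom and 1.38 to 16.5% with 1 library left out. The 4 genes that differed between the lines in DMSO ranged from 2 to 4. In OPM2, TIMM10B turned from 0.18 to -0.29 with limma-voom and TOMM6 from 0.000803 to -0.33. With 1 library left out, TIMM10B ranged from -0.30 to 0.37 and TOMM6 from -0.36 to 0.14, and both were lowest without dBRD9-A replicate 2. With library size alone in place of TMM, 16 and 13 genes were lower, while over all genes the split in OPM2 went from 1205 lower and 1652 higher to 894 and 2029, and in H929 from 931 and 1203 to 627 and 1595. Per gene and alternative, 53 of the calls or values in OPM2 and 88 in H929 no longer passed, and 25 and 35 newly passed, the reversed values of TIMM10B and TOMM6 among the 25. The cause of these shifts was not tested.

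With the replicate number as a block, the counts were 15 lower (OPM2), 14 lower (H929), 0 (difference between responses) and 4 (untreated lines). Of all genes, 5.27% were then called lower in OPM2 and 3.94% in H929. For the difference between responses, 0.0975% were called lower and 0.104% higher, and between the untreated lines 14.8% and 21.2%. The numbers did not pair the samples: same-numbered libraries of a line deviated together with correlations of 0.26, -0.03 and -0.06 in OPM2 and -0.03, -0.20 and -0.12 in H929. In H929, DMSO replicates 1, 2 and 3 correlated best with dBRD9-A replicates 2, 3 and 1, at 0.48, 0.65 and 0.55. A block along that other matching was not tested. With 3 libraries a group and a library of 24524193 counts among them, the smallest called changes were 0.35 (OPM2) and 0.36 (H929) on the log2 scale, and changes of up to 0.47 and 0.61 in size (TIMM23B) were not called.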

Other observations

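Genes that hold the inner membrane folds in shape, and regulators of mitochondrial stress and biogenesis, were also read. Over all genes tested, 7.34% were called lower in OPM2 and 5.67% in H929. Of 10 genes of cristae organisation, 1 fell in each line: CHCHD6, a subunit of the MICOS complex, fell by 0.79 (edgeR, adjusted p = 0.0478) in OPM2, and STOML2, a membrane scaffold that binds prohibitins, fell by 0.46 (adjusted p = 0.0363) in H929. Of 12 regulators, 3 fell in OPM2 and 4 in H929. PPARGC1B, a coactivator of mitochondrial biogenesis, measured 30.8 ± 0.92 CPM (SD, n = 3) in untreated and 13.1 ± 4.04 CPM in treated OPM2, and 68.1 ± 13.2 and 35.9 ± 7.06 CPM in H929, and fell by 1.22 (adjusted p = 0.00324) and 0.92 (adjusted p = 0.0151). PPRC1, a related coactivator, fell by 0.79 (adjusted p = 0.0211) and 0.69 (adjusted p = 0.0441). ATF5, a transcription factor of the mitochondrial unfolded protein response, fell by 0.62 in H929 (adjusted p = 0.0154) and stood at -0.32 (adjusted p = 0.145) in OPM2. TFAM, which packages mitochondrial DNA, fell by 0.65 in H929 (adjusted p = 0.0268), and CEBPB fell by 0.47 in OPM2 (adjusted p = 0.0181). ATF4 passed in neither line, at -0.24 and -0.13.

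Per length, the ratio of TOMM40 to its paralog TOMM40L was 5.43, 5.65 and 5.04 in the OPM2 libraries with DMSO and 3.72, 3.48 and 4.14 with dBRD9-A. In H929 it was 2.90, 3.52 and 3.42 with DMSO and 2.18, 2.62 and 2.40 with dBRD9-A. All treated libraries were lower, replicate 2 of OPM2 included. HSPD1 to HSPE1 held a similar ratio in H929, 2.67 ± 0.17 (SD, n = 3) with DMSO and 2.60 ± 0.15 with dBRD9-A, and was 2.44 ± 0.14 and 2.13 ± 0.30 in OPM2, where replicate 2 was the lowest at 1.80. These ratios were not tested.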
